A study of Mus musculus with 6 samples.

Results

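The core circadian clock genes Per1, Per2, Per3, Cry1, Cry2, Arntl, Clock, Npas2, Nr1d1 and Dbp were examined in adipose tissue of cavin-3 KO and WT mice. They were chosen by name, and 9 of the 10 had a probe set annotated with that symbol alone, out of 19937 such genes on the array. Each of the 9 had 1 probe set, and Npas2 was not analysed here. Adipose RNA of 3 cavin-3 KO mice and 3 WT mice was hybridised to 6 Affymetrix Mouse Gene 1.0 ST arrays. All 6 mice were 10-week-old litter mates kept under 12 h of light and 12 h of dark and fasted for 6 h. In the KO mice a lacZ/neo cassette stood in place of the cavin-3 gene in both alleles. Each of the 2 KO lines of the study came from 1 clone of targeted C57BL/6N embryonic stem cells brought into C57BL/6 mice, and mice of the line kept in Boston served for all but the fibroblast work, per the methods. The labels give neither the fat depot nor the hour of collection, the methods have the fast begin in the early morning, and the hour cannot be told apart from other differences between the mice.

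In the circadian clock, the proteins of Clock and Arntl (BMAL1) pair up and bind E-boxes, short DNA motifs at their target genes, and switch those genes on. Npas2 can stand in for Clock. Among the targets are Per1, Per2, Per3, Cry1 and Cry2, whose proteins gather in a complex and block the same activators, and Nr1d1 (REV-ERB alpha), which represses Arntl. Arntl and Clock therefore form the positive limb, and the Per and Cry genes with Nr1d1 the negative limb. Dbp is an output transcription factor that binds D-boxes. Fat cells run this clock on their own, and transcripts of most of these genes swing over the day, with Arntl high when Dbp is low. Cavin-3 has been linked to PER2, and the question here is whether the clock transcripts of fat differ when cavin-3 is missing.

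Some facts of the arrays touch the values below. Cavin-3 (Prkcdbp, listed as Cavin3), the targeted gene, had a log2 intensity of 6.79, 6.78 and 7.12 on the KO arrays, against 10.05, 10.90 and 10.45 on the WT arrays. It was 1 of 2 probe sets that passed an adjusted p of 0.05 in limma over 34760 probe sets, and the other has no name in the annotation used here. Adipocyte markers were bright on every array, and the mean of 9 measured genes of 10 listed lay between 11.89 and 11.98 on the KO arrays and between 11.77 and 11.97 on the WT arrays. Only males are described in the methods, yet Xist, the RNA of the inactive X chromosome, was at 11.34 in KO replicate 3 and 11.14 in WT replicate 2, against 3.70 to 6.30 on the other 4 arrays. The Y-linked gene Uty was at 3.21 and 3.36 on the same 2 arrays and between 7.89 and 8.14 on the others. Signal from other tissue also differed between arrays. The mean of 10 skeletal muscle genes was 8.92 in KO replicate 3 and 8.75 in WT replicate 2, against 6.10 to 6.80 elsewhere, and the mean of 7 brown or beige fat genes was 7.57 and 7.61, against 5.75 to 6.04. Summed over its 10 genes, muscle signal ranged from 1682 to 7653 intensity units in KO and from 1263 to 6400 in WT, and no marker was listed at 0. Other tissues were highest elsewhere: the mean of 7 smooth muscle genes was 10.61 in KO replicate 2 and 10.76 in WT replicate 1, against 9.20 in KO replicate 3 and 9.54 in WT replicate 2. Summed epididymis signal was 649.9 and 1369 units in KO replicate 2 and WT replicate 1, against 83.9 in KO replicate 3 and 79.1 in WT replicate 2. Of 8 listed epididymis genes 5 were measured, and 0 had a mean above the median of all probe sets. Most of the high sums came from Adam7, at 9.19 in KO replicate 2 and 10.33 in WT replicate 1. The other measured epididymis genes stayed at 4.91 or less on every array. Urothelial genes averaged 7.96 in WT replicate 2 and 5.92 in KO replicate 3, against 5.82 to 6.47 on the other arrays. The differences of the clock genes, the pairs of genes and the counts of the related lists are therefore also given without these 2 arrays, called the high-Xist arrays below. The part of other tissue in the results was not tested.

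The motifs through which the loop is closed can be read in the promoters of these genes. RefSeq promoter windows (GRCm38.p6, from 250 bases before a gene's start to 50 bases after it) were given for 9 of the 10 genes, all but Per2. They were searched on both strands for the E-box CACGTG, its variant CACGTT, the D-box TTANGTAA and AGGTCA, the half-site bound by ROR and REV-ERB receptors. Over all 32851 promoter windows, 7.15% held the E-box, 4.69% the variant, 2.32% the D-box and 16.3% the half-site. The windows printed are those of Per1 and of the genes in the 3 closest pairs below that have an entry, 5′ to 3′ on the strand of the gene, with every match in capitals.
Per1 (chr11:69098699-69098998, plus strand): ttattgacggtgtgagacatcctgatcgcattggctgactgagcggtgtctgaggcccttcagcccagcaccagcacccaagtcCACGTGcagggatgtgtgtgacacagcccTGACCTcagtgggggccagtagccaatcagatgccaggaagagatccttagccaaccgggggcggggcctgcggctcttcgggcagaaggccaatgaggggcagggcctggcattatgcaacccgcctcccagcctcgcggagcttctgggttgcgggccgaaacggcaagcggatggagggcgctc
Per3 (chr4:151044616-151044915, minus strand): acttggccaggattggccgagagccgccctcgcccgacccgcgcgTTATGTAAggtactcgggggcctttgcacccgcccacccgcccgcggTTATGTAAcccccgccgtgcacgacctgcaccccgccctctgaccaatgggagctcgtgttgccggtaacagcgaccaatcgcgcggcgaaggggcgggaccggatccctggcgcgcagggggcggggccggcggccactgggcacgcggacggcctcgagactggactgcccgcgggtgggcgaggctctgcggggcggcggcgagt
Cry1 (chr10:85185005-85185304, minus strand): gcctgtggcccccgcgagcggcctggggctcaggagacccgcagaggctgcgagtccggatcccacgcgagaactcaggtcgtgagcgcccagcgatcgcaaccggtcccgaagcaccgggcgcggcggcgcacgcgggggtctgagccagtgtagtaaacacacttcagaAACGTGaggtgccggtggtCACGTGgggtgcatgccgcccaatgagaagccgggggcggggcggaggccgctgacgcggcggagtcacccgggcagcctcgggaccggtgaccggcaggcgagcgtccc
Cry2 (chr2:92434020-92434319, minus strand): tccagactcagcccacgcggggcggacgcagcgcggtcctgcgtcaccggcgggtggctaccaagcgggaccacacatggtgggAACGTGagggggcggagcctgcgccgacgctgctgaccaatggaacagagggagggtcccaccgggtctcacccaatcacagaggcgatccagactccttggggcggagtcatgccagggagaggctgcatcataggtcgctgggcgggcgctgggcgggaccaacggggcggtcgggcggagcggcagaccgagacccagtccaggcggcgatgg
Arntl (chr7:113207261-113207560, plus strand): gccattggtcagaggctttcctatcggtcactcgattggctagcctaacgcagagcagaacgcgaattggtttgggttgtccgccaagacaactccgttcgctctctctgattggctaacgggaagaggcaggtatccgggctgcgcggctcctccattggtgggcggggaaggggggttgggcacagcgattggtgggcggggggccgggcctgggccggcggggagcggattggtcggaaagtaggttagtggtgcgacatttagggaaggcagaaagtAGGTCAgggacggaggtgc
Dbp (chr7:45704997-45705296, plus strand): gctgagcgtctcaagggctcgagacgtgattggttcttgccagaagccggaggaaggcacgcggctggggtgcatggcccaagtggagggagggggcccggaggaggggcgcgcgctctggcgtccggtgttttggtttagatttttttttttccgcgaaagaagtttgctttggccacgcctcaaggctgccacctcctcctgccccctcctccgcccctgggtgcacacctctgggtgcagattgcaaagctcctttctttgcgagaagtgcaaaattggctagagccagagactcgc
Per1 held the E-box 166 bases upstream of its start and an inverted half-site 137 bases upstream. Cry1 held the E-box 60 bases and the inverted variant 79 bases upstream, so that it carried both kinds of E-box. Cry2 had the inverted variant 166 bases upstream, and Per3 had the D-box TTATGTAA at 205 and at 158 bases upstream. The Arntl window shown, the second of its 2 starts, held the half-site shortly after the start. None of these matches overlapped another. The windows of Dbp and Npas2 and the other windows of Per1 and Arntl held none of the 4 motifs. One of the Clock windows held an inverted half-site 119 bases upstream, and that of Nr1d1 held the inverted variant E-box 28 bases upstream. A match is a stretch of letters, not a measured binding site.

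Of the period genes, Per1 and Per2 were higher in KO on average and Per3 was nearly level, and none of the 3 passed the test. Per1, the period gene that also responds quickly to hormones and light, had log2 intensities of 9.39, 9.41 and 9.02 on the KO arrays and 9.17, 9.06 and 8.89 on the WT arrays. KO replicates 1 and 2 lay above every WT array, while KO replicate 3 lay within the WT range. The KO level was 1.18-fold of WT, with a 95% interval of 0.930 to 1.49. Per2, whose protein is a core part of the repressing complex, had 8.63, 8.58 and 7.80 in KO and 7.91, 8.12 and 8.34 in WT. Here KO replicates 1 and 2 were the highest arrays and KO replicate 3 the lowest of all 6, so the KO values enclosed the WT values. Per2 averaged 8.34 ± 0.47 in KO and 8.12 ± 0.21 in WT (SD, n = 3 each), a level of 1.16-fold with an interval of 0.768 to 1.75, the widest among the 9 genes. Per3 had 9.59, 9.39 and 9.24 in KO and 9.39, 9.19 and 9.45 in WT. The groups overlapped over most of their range, at 1.05-fold (0.848 to 1.29).

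The cryptochromes and Nr1d1 stayed within a few percent of WT on average. Cry1, the stronger repressor of the pair of cryptochromes, had 6.83, 6.73 and 6.37 in KO and 6.74, 6.43 and 6.62 in WT, or 1.03-fold with an interval of 0.802 to 1.33. Cry2 had 8.73, 8.74 and 8.23 in KO and 8.51, 8.56 and 8.74 in WT, or 0.977-fold (0.746 to 1.28). For both genes KO replicate 3 was the lowest array, as it was for Per2. KO replicate 3 was thus the lowest array for 3 of the 9 clock genes, while it was the lowest for 16.6% of all probe sets. WT replicate 1 was the lowest for 3 as well (Clock, Nr1d1 and Dbp), and for 7900 of 34760 probe sets. Nr1d1, the repressor of Arntl, had 11.11, 11.12 and 11.08 in KO and 10.98, 11.12 and 11.22 in WT. All its KO values lay inside the WT range, and its level was 0.995-fold with an interval of 0.851 to 1.16.

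In the positive limb Arntl was lower in KO on average and Clock was level, again without passing the test. Arntl, which encodes the partner of CLOCK, had 6.12, 6.09 and 6.06 in KO and 6.42, 5.92 and 6.55 in WT. The 3 KO arrays were close together, at 6.09 ± 0.03, while WT averaged 6.30 ± 0.34 (SD, n = 3 each). WT replicates 1 and 3 lay above every KO array and WT replicate 2 below every one. The KO level was 0.866-fold of WT with an interval of 0.650 to 1.15. Clock, whose transcript changes little over the day in most tissues, had 8.99, 9.14 and 9.08 in KO and 8.95, 9.07 and 9.07 in WT, or 1.03-fold (0.887 to 1.19). This interval and that of Nr1d1 were the narrowest among the 9 genes.

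Dbp, the output factor, had 9.98, 9.90 and 9.79 on the KO arrays and 9.36, 9.99 and 9.56 on the WT arrays. Its pattern was that of Arntl turned over, with WT replicates 1 and 3 below every KO array and WT replicate 2 above every one. The KO level was 1.19-fold of WT with an interval of 0.897 to 1.58.

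**Figure D1:**
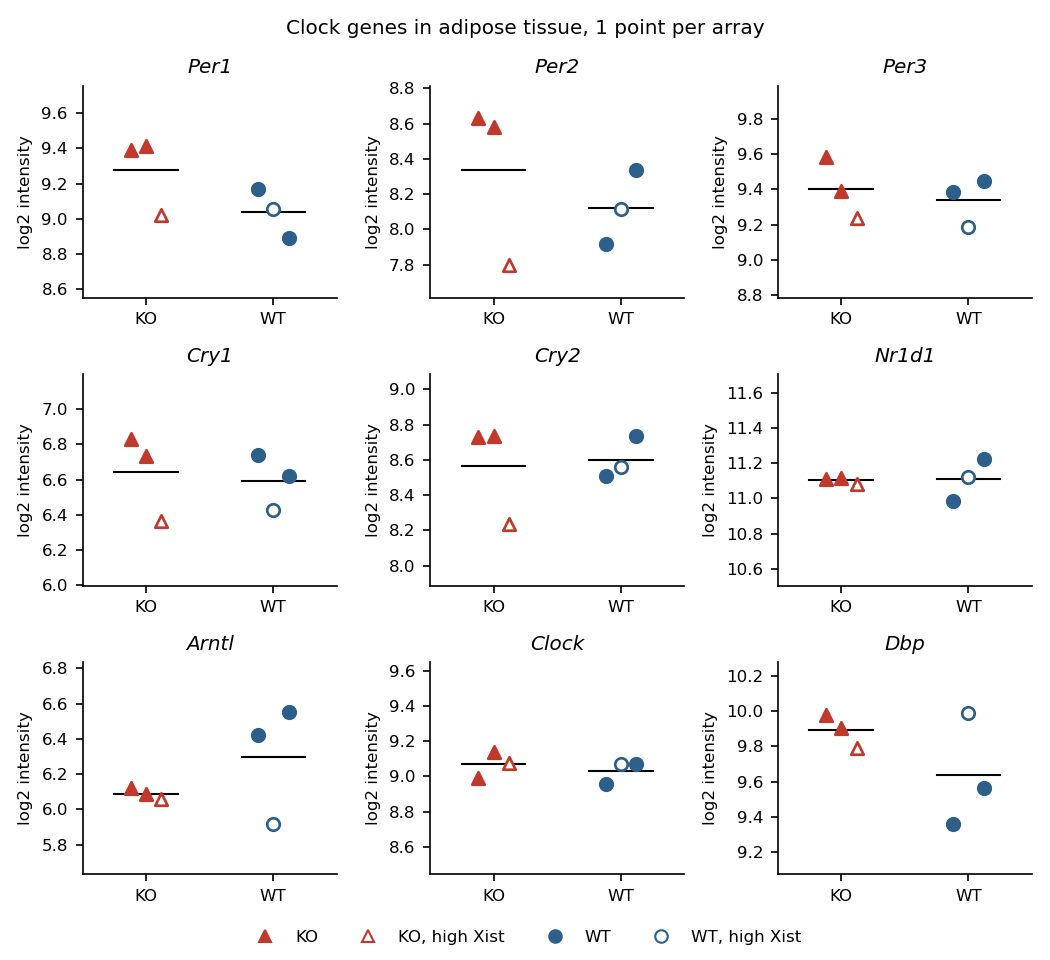
Log2 intensity of 9 clock genes (vertical axes, all of the same span) on the 3 KO arrays (triangles) and the 3 WT arrays (circles), with a line at each group mean and open symbols for the high-Xist arrays. KO and WT points overlap for every gene, and KO replicate 3 is the lowest point for Per2, Cry1 and Cry2.

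Of the 9 clock genes 6 were higher and 3 lower in KO, with a median log2 difference of 0.05, beside a median of 0.0009 over all genes. None passed an adjusted p of 0.05 in limma (adjusted p = 1.0 for each), while 0.00575% of all probe sets did. None had an unadjusted p under 0.05, which 1.95% of all probe sets had, and for none did the KO and WT values lie fully apart, which they did for 5.5% of all probe sets. Among the 19937 genes, each read from 1 probe set, 72 had such a p with a higher KO level and 95 with a lower one. The values of 415 genes lay apart with KO higher and those of 504 with KO lower. The largest difference that the intervals allow was a rise to 1.75-fold for Per2 and a fall to 0.650-fold for Arntl. A miss of the test at 3 arrays a group does not show that the levels were the same. Bulk tissue was measured, so that more cells of a type and more RNA per cell cannot be told apart.

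Single arrays moved the differences of the genes that stood out. Without KO replicate 3 the log2 difference of Per1 was 0.36, against 0.24 with all arrays, and that of Per2 was 0.48, against 0.21. Without KO replicate 1 that of Per2 was 0.06. All 10 liver genes listed as markers had their highest signal in KO replicate 1 (summed 654 to 2426 intensity units over the KO arrays and 418 to 1019 over the WT arrays), and their part was not tested. The difference of Arntl was -0.21 with all arrays, -0.40 without WT replicate 2 and -0.08 without WT replicate 3. That of Dbp was 0.25 with all arrays, 0.43 without WT replicate 2 and 0.11 without WT replicate 1. Per1, Per2 and Dbp stayed higher and Arntl stayed lower in KO without any 1 array, and the lowest adjusted p of any of the 9 in these limma fits was 0.9996.

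Without both high-Xist arrays, 2 KO arrays were left against 2 WT arrays, and Per1, Per2, Dbp and Arntl then separated by genotype. Per1 had 9.39 and 9.41 in KO against 9.17 and 8.89 in WT, or 1.29-fold (95% interval 1.003 to 1.67). Per2 had 8.63 and 8.58 in KO against 7.91 and 8.34 in WT, or 1.39-fold (1.003 to 1.94). Dbp had 9.98 and 9.90 in KO against 9.36 and 9.56 in WT, or 1.39-fold (1.11 to 1.74). Arntl had 6.12 and 6.09 in KO against 6.42 and 6.55 in WT, or 0.767-fold (0.630 to 0.934). For these 4 of the 9 the KO and WT values lay apart and the unadjusted p in limma was under 0.05, while 29.4% of all probe sets lay apart and 2.87% had such a p. Of the 19937 genes, read from 1 probe set each, 280 had such a p. No clock gene passed after adjustment (adjusted p = 0.9996 for each), and neither did any probe set, cavin-3 included. The other 5 lay between 1.005-fold for Nr1d1 and 1.08-fold for Cry2.

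The pair of high-Xist arrays ran the other way for the same 4 genes, but not for them alone. Cry2, Cry1 and Nr1d1 turned sign too, from 0.11, 0.10 and 0.0075 without those arrays to -0.33, -0.06 and -0.04 in the pair. Per3 and Clock kept their sign. KO replicate 3 minus WT replicate 2 was -0.04 for Per1, -0.32 for Per2, -0.20 for Dbp and 0.14 for Arntl on the log2 scale, with 1 array on each side and no spread. The gap between this difference and that of the other 4 arrays was itself fitted in limma. Each arm of the high-Xist pair is 1 array, so the spread comes from the other 4 arrays and the lone arrays are assumed to vary like them. The gap was -0.67 for Dbp (95% interval -1.24 to -0.11), 0.53 for Arntl (0.03 to 1.02), -0.80 for Per2 (-1.62 to 0.02) and -0.41 for Per1 (-1.04 to 0.23). For Cry2 it was -0.44 (-1.02 to 0.14). Dbp and Arntl had an unadjusted p under 0.05 there, 2 of 9 genes where 6.44% of all probe sets had one, and none of the 9 passed after adjustment (adjusted p = 0.764 for both). With the high-Xist arrays as a term in the fit of all 6, the differences were the same by construction and the interval of Per2 narrowed to 0.807 to 1.66. In that fit 0 of the 9 genes had an unadjusted p under 0.05, while 2.44% of all probe sets had.

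**Figure D2:**
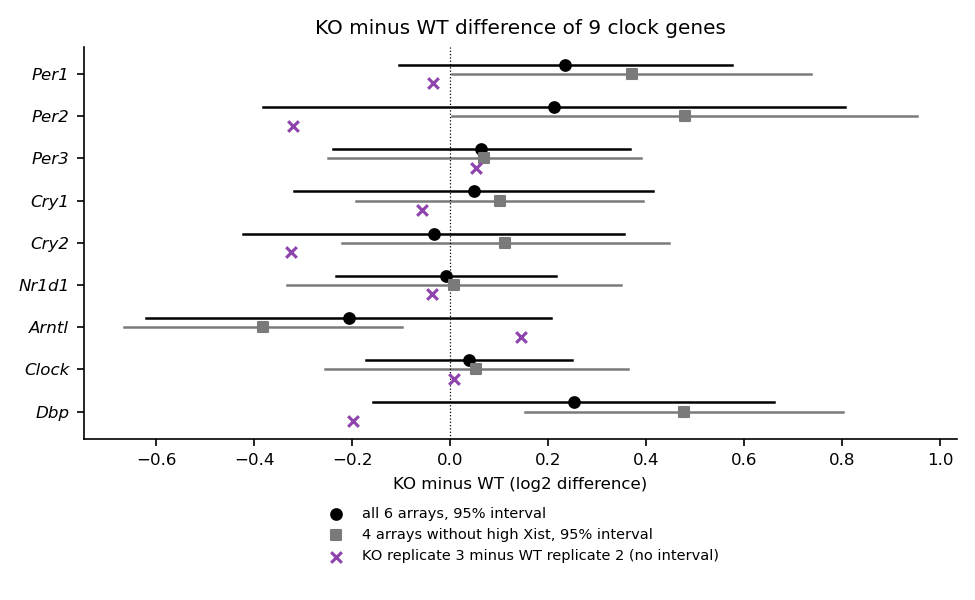
KO minus WT log2 difference (horizontal axis) of 9 clock genes, with all 6 arrays (circles) and without the 2 high-Xist arrays (squares), each with its 95% interval from limma, and the single difference of the high-Xist arrays (crosses). Without those arrays the intervals of Per1, Per2, Dbp and Arntl end on one side of 0, and the crosses of these 4 genes lie on the other side. Crosses and squares of Cry1, Cry2 and Nr1d1 also lie on opposite sides of 0.

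Read array by array, the negative limb varied more within KO (SD 0.23) than it differed between KO and WT (0.09). For each array the deviation of a gene from its mean over the 6 arrays was averaged over the 6 measured genes of the negative limb and over Arntl and Clock for the positive limb. In KO replicates 1 and 2 all 6 negative limb genes were above their mean, by 0.20 and 0.15 on average, and the positive limb was at -0.06 and -0.01. In KO replicate 3 all 6 negative limb genes were below it, at -0.22, and the positive limb was at -0.05. WT replicate 1 had the negative limb at -0.06 and the positive limb at 0.07. WT replicate 2 had both low, at -0.10 and -0.13. WT replicate 3 had both above the mean, at 0.03 and 0.19.

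The difference between the limbs, negative minus positive, was 0.27, 0.16 and -0.17 on the KO arrays and -0.13, 0.03 and -0.16 on the WT arrays. Its mean was 0.09 ± 0.23 in KO and -0.09 ± 0.10 in WT (SD, n = 3 each), a difference of 0.17 between genotypes that is smaller than the SD within KO. As a score over genes chosen by name it was given no test. It was 0.35 without the high-Xist arrays and -0.20 between those 2 arrays. Dbp stood above its mean by 0.21, 0.14 and 0.03 on the KO arrays and by 0.23 in WT replicate 2, and was at -0.40 and -0.20 in WT replicates 1 and 3.

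**Figure D3:**
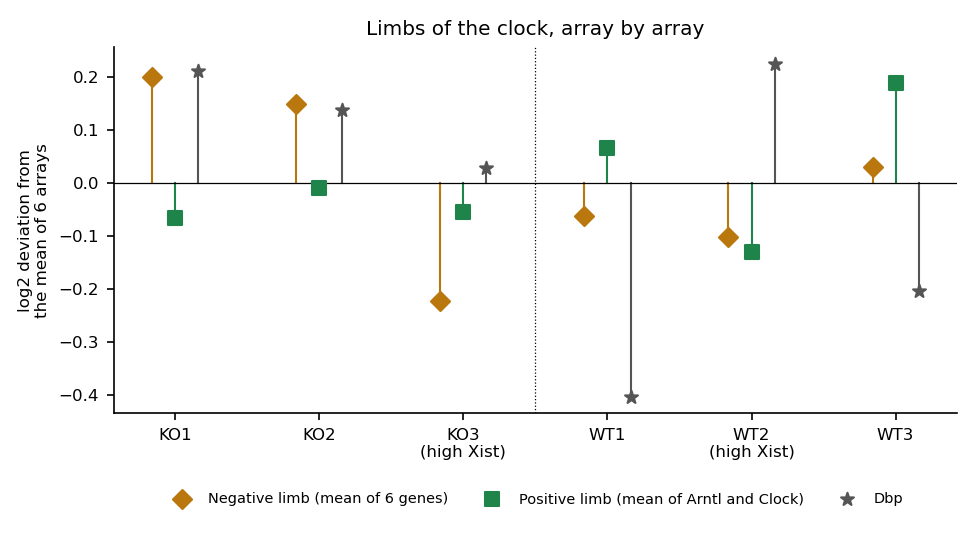
Log2 deviation from the mean of the 6 arrays (vertical axis) on each array for the negative limb (mean of Per1, Per2, Per3, Cry1, Cry2 and Nr1d1), the positive limb (mean of Arntl and Clock) and Dbp. KO replicates 1 and 2 show the negative limb high at 0.20 and 0.15, and KO replicate 3 shows it low at -0.22.

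Whether clock genes varied together from mouse to mouse was followed over all 36 pairs of the 9 genes. Of the pairs 25 had a positive and 11 a negative Pearson correlation over the 6 arrays, and 35 had the same sign within genotypes. None passed an exact permutation test after Benjamini-Hochberg adjustment over the 36 pairs, where a single pair could reach no less than 0.05, and 3 had an unadjusted p under 0.05. A pair could therefore not pass by itself. Per2 and Cry2 had the closest relation, with r = 0.90 (exact permutation p = 0.00556, adjusted 0.200) and a Spearman rho of 0.83 (exact permutation p = 0.0583, adjusted 0.788). It stayed at 0.93 without KO replicates 1 and 3, the arrays farthest from the median of Per2, at 0.99 within genotypes, at 0.92 without the high-Xist arrays, and between 0.89 and 0.93 without any 1 array. Per3 and Cry1, whose promoters are shown above with D-boxes and with E-boxes, had r = 0.88 (exact permutation p = 0.0222, adjusted 0.400) and a rho of 0.71 (exact permutation p = 0.136, adjusted 0.788). Their r was 0.80 without KO replicate 1 and WT replicate 2 and 0.54 without the high-Xist arrays.

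Arntl and Dbp, the pair known to run in opposite phase, had r = -0.86 (exact permutation p = 0.0403, adjusted 0.483) and a rho of -0.71 (exact permutation p = 0.136, adjusted 0.788). Without WT replicates 1 and 3, which carried high Arntl and low Dbp, r was -0.30, so that the relation rests on those 2 arrays. It was -0.85 without the high-Xist arrays, where WT replicates 1 and 3 are the only WT arrays left. It lay between -0.90 and -0.82 without any 1 array, which leaves at least 1 of those 2 in place, and was -0.81 within genotypes. Cry1 and Cry2 had r = 0.72 (exact permutation p = 0.115, adjusted 0.731) and a rho of 0.37 (exact permutation p = 0.497, adjusted 0.846), which went to -0.08 for r without the high-Xist arrays and so rests on them. Arntl and Per3 had r = 0.48 (exact permutation p = 0.332, adjusted 0.750) and a rho of 0.71 (exact permutation p = 0.136, adjusted 0.788), with r = 0.75 without KO replicate 1 and WT replicate 2 but -0.30 without the high-Xist arrays, where the sign turned. Arntl and its repressor gene Nr1d1 had r = 0.14 (exact permutation p = 0.800, adjusted 0.906) and a rho of 0.03 (exact permutation p = 1.0, adjusted 1.0). Their r was -0.34 without WT replicates 1 and 3 and 0.18 without the high-Xist arrays. With 1 array left out in turn it ran from -0.91 to 0.88, so that it depends on which array is left out.

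**Figure D4:**
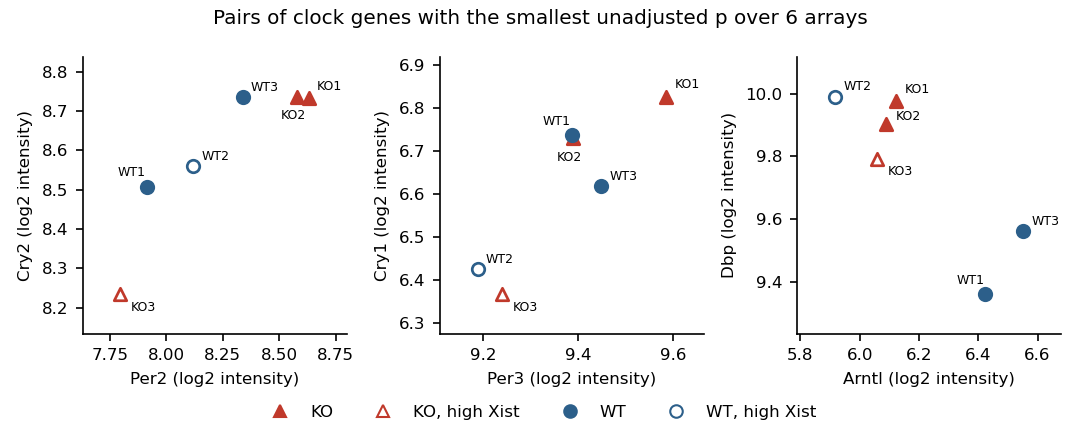
Log2 intensities of Per2 and Cry2, of Per3 and Cry1, and of Arntl and Dbp plotted against each other, 1 point per array (KO triangles, WT circles, open symbols for high Xist). Per2 and Cry2 lie along a rising line (r = 0.90), and the falling relation of Arntl and Dbp (r = -0.86) rests on WT replicates 1 and 3.

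No gene around the core loop passed the test either. Of the secondary loop and output factors 10 of 11 were measured, 8 higher and 2 lower in KO with a median log2 difference of 0.09. Of all 19937 genes 10036 were higher. None of the 10 had an unadjusted p under 0.05 in limma, which 1.95% of all probe sets had. Bhlhe40 (DEC1), an E-box repressor, had 8.39, 8.25 and 8.40 in KO and 7.92, 8.29 and 8.04 in WT, or 1.201-fold (95% interval 0.982 to 1.47). Tef, a D-box activator related to Dbp, was at 1.18-fold (0.9504 to 1.47), and Arntl2 (BMAL2), a paralogue of Arntl, at 1.06-fold (0.858 to 1.32). Ciart (CHRONO), a repressor of the CLOCK and BMAL1 pair, followed the negative limb, with 8.10, 7.98 and 6.90 in KO and 7.38, 7.51 and 7.27 in WT. KO replicates 1 and 2 were its highest arrays and KO replicate 3 its lowest, and so they were in its second probe set, with 7.33, 7.58 and 6.44 in KO and 6.48, 6.71 and 6.78 in WT. Ciart was at 1.21-fold with all arrays (0.712 to 2.05) and at 1.64-fold without the high-Xist arrays (1.34 to 2.02, adjusted p = 0.9996 from limma). Without the high-Xist arrays 8 of the 10 genes were higher in KO (median 0.16), as were 9719 of all 19937 genes. Bhlhe40 was then at 1.27-fold (1.03 to 1.57) and Tef at 1.29-fold (0.972 to 1.71). Ciart and Bhlhe40 had an unadjusted p under 0.05, which 2.87% of all probe sets had. With all arrays the adjusted p from limma was 1.0 for each of these genes.

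Kinases and turnover factors of clock proteins were level, with 5 of 11 measured genes higher and 6 lower in KO and differences between -0.06 and 0.15. Of the 11, 5 were higher without the high-Xist arrays (median -0.02). There 2.87% of all probe sets had an unadjusted p under 0.05, and 1 of the 11, Usp2, did. Among them Csnk1e, a kinase that marks PER proteins, was at 1.06-fold (0.920 to 1.21), Fbxl21, a ligase component for CRY proteins, at 1.11-fold (0.879 to 1.40), Timeless at 1.04-fold (0.902 to 1.203) and Btrc, a PER ligase adaptor, at 0.959-fold (0.818 to 1.13). The related kinase gene Csnk1d was at 0.971-fold (0.811 to 1.16). Of the genes that the clock drives, 5 of 10 were higher and 5 lower. KO replicate 3 was the lowest array for 7 of the 10, and for 16.6% of all probe sets. Without the high-Xist arrays all 10 were higher in KO, as were 9719 of all 19937 genes. The median log2 difference of the 10 was then 0.12, against 0.0088 with all arrays. An unadjusted p under 0.05, which 2.87% of all probe sets had there, was found for 2 of the 10. These were Tspan4 and Usp2, and Usp2 is the same gene as on the turnover list. The 4 with the smallest unadjusted p were Tspan4, at 1.24-fold (0.848 to 1.82), the lipase gene Pnpla2 at 1.07-fold (0.921 to 1.24), Ppargc1a, a coactivator of mitochondrial genes, at 1.06-fold (0.777 to 1.44) and Wee1, a cell cycle kinase driven through E-boxes, at 0.931-fold (0.5845 to 1.48). Usp2, a deubiquitinase with a strong daily swing, had 8.43, 8.26 and 7.34 in KO and 7.92, 7.75 and 8.07 in WT, so that KO replicates 1 and 2 were its highest arrays and KO replicate 3 its lowest. Without the high-Xist arrays Usp2 was at 1.27-fold (1.01 to 1.60) and Tspan4 at 1.46-fold (1.05 to 2.05), with an adjusted p of 0.9996 from limma for both.

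Per1 is also a direct target of the glucocorticoid receptor, and other genes of that response were read beside it. Of 10 such genes, Per1 included, 7 were higher and 3 lower in KO, with a median log2 difference of 0.18, while 10036 of all 19937 genes were higher. Dusp1, a phosphatase of MAP kinases, had 10.10, 10.49 and 9.99 in KO and 9.64, 9.77 and 9.87 in WT, values that did not overlap. It was at 1.35-fold (1.05 to 1.74, adjusted p = 1.0 from limma) and was the 1 gene of the 10 with an unadjusted p under 0.05, which 1.95% of all probe sets had. Without the high-Xist arrays 8 of the 10 were higher (median 0.17), and Dusp1 was at 1.45-fold (1.03 to 2.05). Dusp1 and Per1 had an unadjusted p under 0.05 there, which 2.87% of all probe sets had, but an adjusted p of 0.9996 from limma. Sgk1, a kinase induced by glucocorticoids, was at 1.16-fold (0.944 to 1.41), and Klf9 was at 1.16-fold (0.938 to 1.43). The lowest KO array of Sgk1, at 8.1233, was only just above its highest WT array, at 8.1232. With Sgk1 counted beside Dusp1, the values of 2 of the 10 genes lay apart, where 5.5% of all probe sets did. Fkbp5, a chaperone that rises strongly with glucocorticoids, had 8.74, 8.96 and 6.90 in KO and 8.68, 7.29 and 8.83 in WT, with both high-Xist arrays far below the rest. The mean of the 10 genes was 8.69 in KO replicate 3 and 8.66 in WT replicate 2, against 8.96 to 9.28 on the other arrays. The 10 did not all move this way. Pdk4 was highest on those 2 arrays, at 9.73 and 9.54, against 9.13 to 9.21 elsewhere. Sgk1, Dusp1 and Klf9 were above their mean in KO replicate 3, by 0.07, 0.02 and 0.09, and below it in WT replicate 2. The part of this response in the levels of Per1 was not tested.

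Immediate early genes, a measure of handling and acute stimulation, were balanced, with 6 of 12 higher and 6 lower in KO and a median of 0.0071. The values of Dusp1, which is on this list too, and of Fosb lay apart, 2 of 12 genes where 5.5% of all probe sets lay apart. Fosb, a partner of JUN proteins, had 6.02, 5.95 and 5.96 in KO and 6.20, 6.12 and 6.67 in WT, at 0.781-fold (0.603 to 1.01). Of the 12, 6 were higher without the high-Xist arrays (median -0.03), and Fosb was at 0.731-fold (0.5125 to 1.04). Ier3 was at 1.21-fold (0.942 to 1.55) and Egr2, a zinc finger factor, at 0.820-fold (0.623 to 1.08). Neither passed the test (adjusted p = 1.0 for each from limma).

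**Figure D5:**
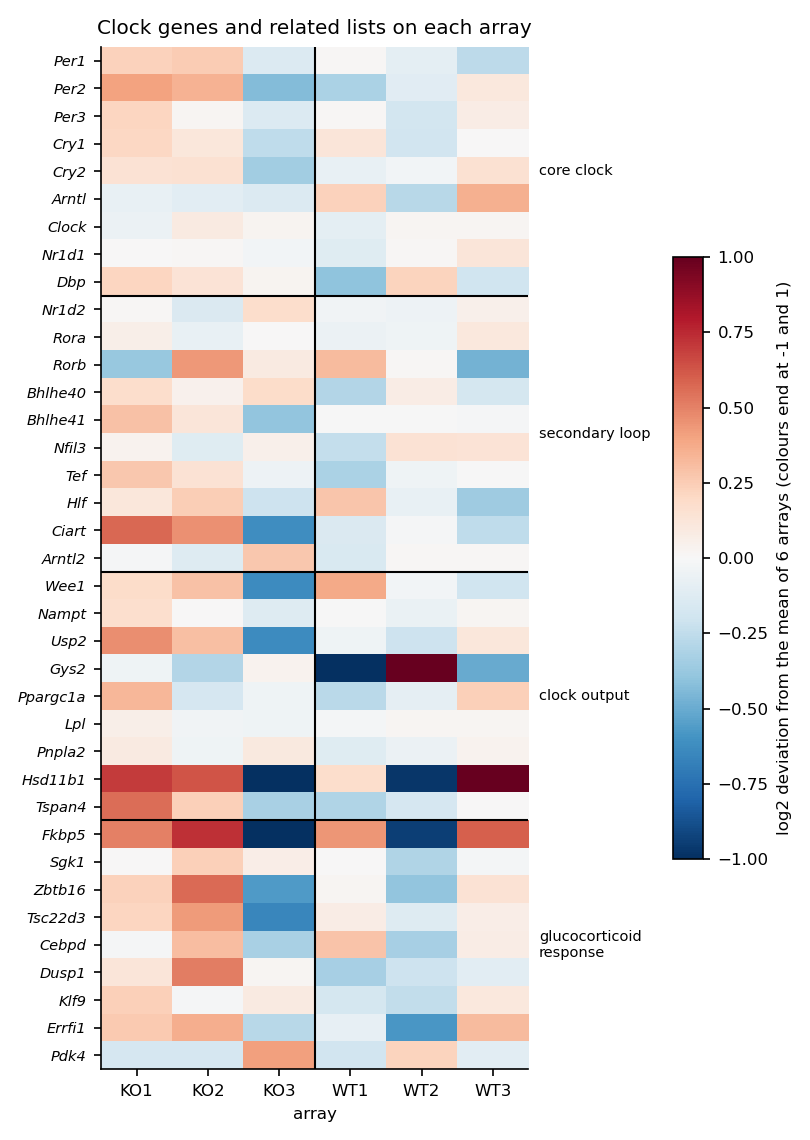
Log2 deviation from the mean of the 6 arrays (colour, ending at -1 and 1) of the core clock, secondary loop, clock output and glucocorticoid response genes (down the page) on each array (across, KO left of the line). Per1, Per2, Cry2, Ciart and Usp2 are above their mean in KO replicates 1 and 2 and below it in KO replicate 3, and Fkbp5 is low in KO replicate 3 and WT replicate 2.

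Genes whose level followed Dbp or Arntl most closely over the 6 arrays were sought among those with a mean signal at or above the median. Of 9968 genes, 25 had an r above 0.95 with Dbp. The closest were Tmem109 (r = 0.994), Klf15, a transcription factor of fasting metabolism (r = 0.994), Msrb3, a methionine sulfoxide reductase (r = 0.987), Sdf2 (r = 0.984) and Slc22a18, a membrane transporter (r = 0.980). Klf15 had 8.61, 8.61 and 8.52 in KO and 8.22, 8.64 and 8.34 in WT, so that WT replicates 1 and 3 were low for it as for Dbp. With Arntl 6 of 9969 genes had an r above 0.95. The closest were Enpp4 (r = 0.985), the intramembrane protease gene Sppl3 (r = 0.978), Apoc1, an apolipoprotein (r = 0.966), Oser1 (r = 0.966) and Srpk2, a kinase of splicing factors (r = 0.963). None of these 10 is a clock gene on the lists used here. With 6 arrays and this many genes high values of r arise often, and the points share the arrays, so these are descriptions.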

How the data were processed

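Adipose RNA of 3 cavin-3 KO and 3 WT mice was measured, 1 array per mouse. The authors amplified the RNA, labelled the cDNA with biotin and used GenePattern modules. What was deposited is 1 linear intensity for each probe set and array, made with RMA according to the submitters' processing notes (no version given). Since RMA corrects background and normalizes by quantiles, these steps were not run again, apart from 1 alternative. The sources do not name a genome build for the array annotation (promoter windows are on GRCm38.p6). The replicates are separate mice, described as litter mates with no litter given for each, and the number of arrays limits the precision.

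After a log2 transform, KO was compared with WT over all 34760 probe sets in limma 3.58.1 (R 4.3.3, lmFit and eBayes, no covariate), with Benjamini-Hochberg adjustment over all of them. Folds are log2 differences turned back to the linear scale, and their intervals cover 95%. Of the probe sets, 21640 carry 1 symbol, 1321 several and 11799 are not in the platform annotation. A gene with several probe sets is given by the one with the highest mean. Pairs of genes were tested by exact permutation (two-sided, 720 orders). The procedure was tested on simulated data.

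The members and lists were chosen with earlier results of these data known. Genes were named as all members, the 4 with the smallest unadjusted p of each list, and the 5 most like Dbp and Arntl. Fkbp5 and Usp2 were added after their values were seen, as was the fit with the high-Xist arrays as a term. The alternatives were the methods' t-test, median centring of the arrays, quantile normalization, leaving out dim probe sets, only single-symbol probe sets, another variance model, array weights, a replicate block, and leaving out arrays. Limb alternatives were medians, no Cry1, and Dbp in the negative limb.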

Additional observations from a re-analysis of the deposited data

How the results depend on the processing

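None of the 9 clock genes was called under any alternative run. Without each array in turn the number of called probe sets lay between 1 and 2, against 2 with all arrays. That number was 0 with the methods' t-test on log2 or on linear values (759 and 753 probe sets with an unadjusted p under 0.05), 1 with single-symbol probe sets, which hold fewer features, 0 with the replicate block and 0 without the high-Xist arrays, which leaves 4 arrays. The replicate numbers of the labels only name the mice: the deviations of same-numbered KO and WT arrays correlated at -0.15, -0.37 and -0.09 over all probe sets, and under the replicate block 0 clock genes were called and 698 probe sets had an unadjusted p under 0.05, against 677. Directions held for all 9 clock genes in 9 settings that kept 6 arrays and for 8 with quantile normalization, where Nr1d1 was at 0.0062, against -0.0076. Of those settings, only the t-test on linear values, median centring, array weights and quantile normalization change a difference. In the rest it equals that of the main fit by construction, so its sign could not turn there. Without the high-Xist arrays Cry2 was at 0.11, against -0.03, and Nr1d1 at 0.0075. The cause was not tested. Leaving out single arrays gave log2 differences of -0.0264 to 0.15 for Per3, -0.0442 to 0.19 for Cry1, -0.12 to 0.13 for Cry2, -0.0007 to 0.077 for Clock and -0.0705 to 0.0501 for Nr1d1, so these 5 have no settled direction. The difference in the limb index was 0.17, between 0.08 and 0.30 without single arrays, between 0.15 and 0.19 under the other normalizations and limb choices, and 0.35 without the high-Xist arrays. With 5 arrays no single pair of genes could pass after adjustment, so the pairs without 1 array are not a test. With all 6 arrays a single pair could reach 0.05 but not fall below it, so none could pass by itself there either. Each measured clock gene has 1 probe set, so a mean over probe sets was not run, and no test was made on deviations from genotype means. Arntl and Cry1 lie near the middle of all probe sets in mean signal (percentiles 51.5 and 57.8).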
